A study of Homo sapiens with 6 samples.

Results

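The genes described here are 8 regulators and markers of mesenchymal transition, chosen by their symbols: VIM, ZEB1, ZEB2, SNAI2, CDH2, TGFBI, TGFB1 and CD44. Of these, 7 had rows, which together made up 30 of the 28768 transcripts and 7 of the 11593 gene symbols listed. TGFBI, which encodes a matrix protein induced by TGF-beta, had no row, so its RNA level was not analysed here. The series asked which messenger RNAs associate with SNHG10, a long noncoding RNA, in SK-Hep1, an established human cell line labelled as hepatocellular carcinoma. The groups were 3 libraries labelled as ChIRP with the SNHG10 complete probe set and 3 labelled as ChIRP with the LacZ control probe set, from cells with no other labelled treatment. ChIRP captures an RNA and its crosslinked partners with antisense probes, and LacZ is a bacterial gene. The extract protocol describes Trizol RNA and names no capture step, so a value here is a level in the sequenced RNA, and the labels leave unclear whether that RNA was captured or total. No label states that the replicates were separate cultures, so the spread behind each p-value is that of these 6 libraries and may be technical.

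In epithelial-mesenchymal transition, epithelial cells loosen their junctions and take on a motile, matrix-bound form. The ligand TGF-beta 1 (TGFB1) is a classic inducer, and the transcription factors ZEB1, ZEB2 and SNAI2 (Slug) repress epithelial genes by binding E-boxes, short DNA motifs. Vimentin (VIM), an intermediate filament protein, N-cadherin (CDH2), a cell adhesion receptor, and CD44, a receptor for hyaluronan, mark the mesenchymal state or stem-like carcinoma cells. In liver cancer, these genes are widely used to describe invasive cells.

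Since the regulators among these genes act through E-boxes, the promoter windows of the genes themselves were searched for a form of that motif. RefSeq windows (GRCh38.p14, 250 bases before to 50 after an annotated start) were matched for 7 of the 8 genes, in 14 windows, 7 of them of ZEB1; SNAI2 was not matched. The form searched was CACCTG or its reverse complement CAGGTG, which covers both strands. Other forms of the E-box were not searched, so a window without a match may still hold another form. It occurred in 2 of the 14 windows, both of ZEB1, and in 20.6% of all 35116 promoter windows. The ZEB1 window with 3 matches and the only window of ZEB2 are shown because one paralog holds the most matches and the other none. Of all windows, 0.635% held 3 or more. Capitals mark the matches.
ZEB1, plus strand, chr10:31318966-31319265: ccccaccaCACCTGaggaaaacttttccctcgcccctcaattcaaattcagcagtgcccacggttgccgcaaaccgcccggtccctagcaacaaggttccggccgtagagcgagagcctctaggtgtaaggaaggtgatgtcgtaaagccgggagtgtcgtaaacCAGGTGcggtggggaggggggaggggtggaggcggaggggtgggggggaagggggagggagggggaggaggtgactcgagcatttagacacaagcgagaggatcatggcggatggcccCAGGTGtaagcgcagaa
ZEB2, minus strand, chr2:144520070-144520369: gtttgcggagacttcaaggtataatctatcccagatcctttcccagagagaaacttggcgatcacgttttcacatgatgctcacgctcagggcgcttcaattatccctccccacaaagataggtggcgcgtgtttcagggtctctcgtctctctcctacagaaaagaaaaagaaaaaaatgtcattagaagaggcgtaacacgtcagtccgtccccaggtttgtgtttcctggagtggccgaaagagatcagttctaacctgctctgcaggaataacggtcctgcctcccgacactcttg
A match describes letters in the window and is no evidence of binding, and the RNA values below bear on no promoter.

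The members spanned most of the range of levels listed in these SK-Hep1 libraries, whose RNA may be captured or total. Levels are given as FPKM, fragments scaled to transcript length and library size, summed over the listed transcripts of a gene, so they can be compared between genes. By mean over the 6 libraries VIM stood 22nd of 11593 genes, with 1133 FPKM, and CD44 174th, with 208 FPKM. TGFB1 averaged 42.7 FPKM and exceeded 91.5% of the genes. SNAI2 and ZEB2 lay in the middle, at 10.8 and 8.81 FPKM, above 65.6% and 59.5% of the genes. CDH2 was low, at 1.84 FPKM, above 19.0%. These ranks and percentages are over the listed genes only, and each listed transcript reached at least 0.507 FPKM in some library. ZEB1 was not ranked, since its single row was listed at 0 in 4 of the 6 libraries. VIM, CD44, TGFB1 and SNAI2 followed each other with no overlap of their 6 values. SNAI2 and ZEB2 overlapped, with SNAI2 higher in 4 of 6 libraries. ZEB2 was above CDH2 in all 6. These are bulk libraries, in which fewer expressing cells and less RNA per cell cannot be told apart. VIM and ZEB2 each have an antisense gene at their start, and no source used here says that strand was used in counting, so reads of such a pair cannot be told apart either.

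**Figure D1:**
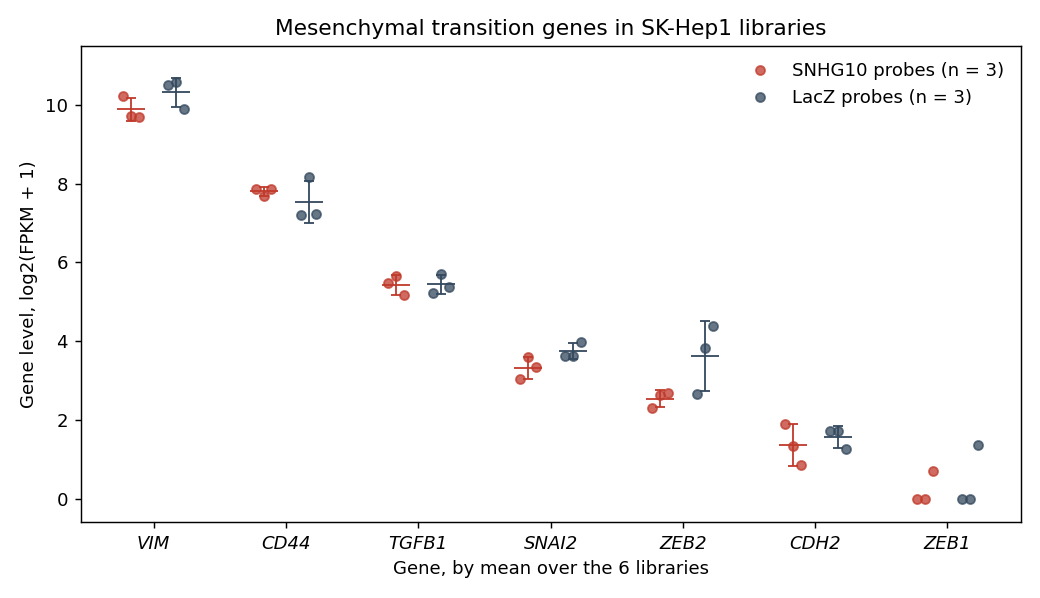
Gene level as log2(FPKM + 1) for each gene with rows, ordered by mean; each point is a library, bars give the mean ± SD of 3 libraries, and no bar is drawn where a library is listed at 0. VIM stands highest, near 1133 FPKM, ZEB1 is listed at 0 in 4 of the 6 libraries, and ZEB2 has the widest scatter, in the LacZ libraries.

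None of the members passed the test between probe sets. FPKM sums were compared on log2(FPKM + 1) with limma over the 10304 genes that reached 1 FPKM in 3 or more libraries, using Benjamini-Hochberg adjustment and a threshold of 0.05. Of the 8 members, 6 entered the test and ZEB1, below the filter, did not. Among those 6, 0 were called, against a background of 0% (0 of 10304 genes), with limma adjusted p from 0.885 to 0.993. At an unadjusted p under 0.05 there was 1 of 6, ZEB2, against 5.42% of all genes (3.32% in its direction). The median log2 difference of the 6 was -0.31, with 5 below 0 and 1 above, against a median of -0.0537 and 56.7% below 0 over all genes tested. With median-ratio scaling 4 of the 6 were below 0.

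**Figure D2:**
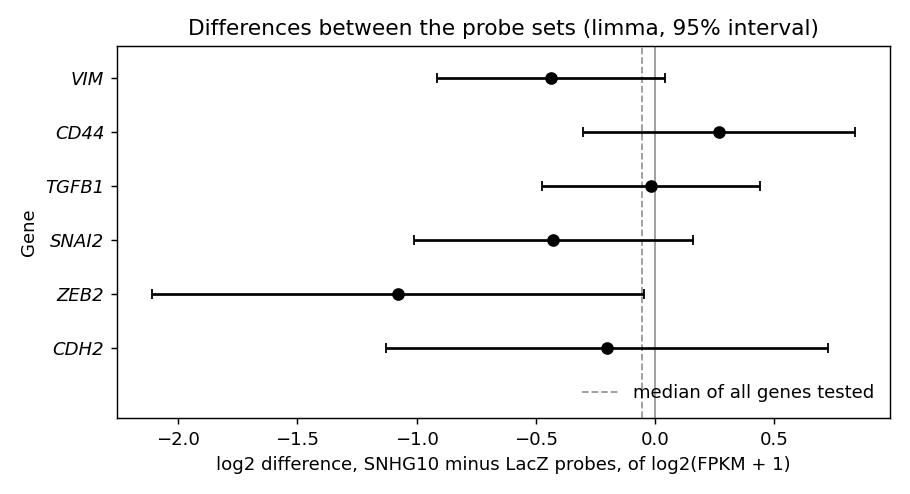
The log2 difference, SNHG10 minus LacZ probes, on the log2(FPKM + 1) scale with its 95% interval from limma for the 6 genes tested (3 libraries per probe set); the dashed line is the median of all genes tested, -0.0537. The interval of ZEB2, -2.11 to -0.0469, is the widest and the only one that leaves out 0, before adjustment over 10304 genes.

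Among the transcription factors, SNAI2 was the only gene whose libraries did not overlap. SNAI2 (chromosome 8, 49830327 to 49833988, minus strand, hg19), a snail-family repressor listed as a single transcript, had 7.22, 11.1 and 9.06 FPKM with SNHG10 probes, against 11.4, 11.4 and 14.8 FPKM with LacZ probes. Each SNHG10 library lay below each LacZ library, though the gap between the nearest pair, 11.07 and 11.39 FPKM, was small. Non-overlap occurred in 11.4% of all genes tested (7.21% with SNHG10 libraries below). The log2 difference was -0.43 ± 0.25 (SE), 95% interval -1.01 to 0.16, with a limma adjusted p of 0.928.

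ZEB2 had the largest difference of the members and the least steady values. ZEB2 (chromosome 2, 145141648 to 145277962, minus strand, hg19), a zinc-finger homeobox repressor, had 3.91, 5.24 and 5.43 FPKM with SNHG10 probes, against 5.27, 13.2 and 19.8 FPKM with LacZ probes. LacZ replicate 1 lay within the SNHG10 values, and the other two LacZ libraries lay above them. The log2 difference was -1.08 ± 0.44, with a limma adjusted p of 0.885 and an unadjusted p of 0.0425. It was -0.70 without LacZ replicate 3 and -1.56 without LacZ replicate 1. Its SD within probe sets was 0.64 on the log2 scale, against a median of 0.40 over all genes tested.

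The scatter of ZEB2 came with different transcripts. The gene was listed as 7 transcripts, and of these ZEB2-236 was the leading one in 5 libraries. ZEB2-236 read 3.91, 2.71 and 4.36 FPKM with SNHG10 probes, against 3.21, 0 and 6.38 FPKM with LacZ probes, and its groups overlapped (limma adjusted p = 0.956). ZEB2-225 was at 0 in each of the 3 SNHG10 libraries, against 1.87, 12.8 and 0 FPKM in the LacZ libraries. In LacZ replicate 2, ZEB2-225 thus made up 96.6% of the gene, while the leading ZEB2-236 was at 0. In LacZ replicate 3, 5 transcripts were above 0, including ZEB2-202 at 5.70 and ZEB2-205 at 3.19 FPKM. The 2 high ZEB2 values in the LacZ libraries were therefore assigned to different transcripts. Reads shared by isoforms must be divided between them, and the part of that division in this pattern was not tested. ZEB2-236 held 100%, 51.7% and 80.4% of the gene in the SNHG10 libraries, against 60.9%, 0% and 32.2% in the LacZ libraries, a difference of 46.3 percentage points (two-sided exact permutation p = 0.2). It was 30.8 points without LacZ replicate 2 and 61.2 points without LacZ replicate 1. Over the 3 isoform shares compared the adjusted p was 0.3, and the smallest p that 20 assignments of libraries can give is 0.1.

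ZEB1, the paralog of ZEB2, was hardly listed. ZEB1 (chromosome 10, 31608101 to 31818741, plus strand, hg19) had a single row, ZEB1-202, at 0, 0 and 0.622 FPKM with SNHG10 probes, against 0, 0 and 1.59 FPKM with LacZ probes. A 0 in these tables can be a failed estimate, and other ZEB1 transcripts were not analysed here, so the row does not give the level of the gene. No share of ZEB2 in the sum of both genes is therefore given.

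The ligand TGFB1 showed no detectable difference between probe sets. TGFB1 (hg19, chromosome 19, 41836228 to 41859816, minus strand) had levels of 43.4, 49.0 and 34.8 FPKM with SNHG10 probes, against 36.5, 51.5 and 40.7 FPKM with LacZ probes. The values interleaved, and the log2 difference was -0.02 ± 0.20, 95% interval -0.47 to 0.44 (limma adjusted p = 0.993). Differences within that interval are not excluded, and the interval is not a limit of detection. TGFB2, the other ligand of the family with rows, averaged 11.9 ± 2.1 FPKM with SNHG10 probes and 12.2 ± 2.61 FPKM with LacZ probes (SD, n = 3 each). TGFB1 made up 77.8% ± 4.31 of the FPKM of both ligands with SNHG10 probes and 77.9% ± 2.1 with LacZ probes (two-sided exact permutation p = 1, n = 3 each).

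VIM was the most abundant member in every library. VIM (chromosome 10, 17270258 to 17279592, plus strand, hg19) had levels of 1202, 846 and 833 FPKM with SNHG10 probes, against 1443, 1522 and 953 FPKM with LacZ probes. LacZ replicate 3 lay below SNHG10 replicate 1, so the groups overlapped. The log2 difference was -0.44 ± 0.21, 95% interval -0.91 to 0.0436, with a limma adjusted p of 0.885. All members together contributed 0.555%, 0.415% and 0.409% of the summed FPKM of a library with SNHG10 probes, against 0.599%, 0.680% and 0.435% with LacZ probes, and VIM was the main part of it.

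Nearly all VIM signal was assigned to VIM-201, with 1 exception. VIM-201 (17271277 to 17279592) read 1196, 662 and 824 FPKM with SNHG10 probes, against 1443, 1522 and 950 FPKM with LacZ probes. VIM-209, a transcript whose start lies upstream, at 17270258, read 4.0, 179 and 8.69 FPKM with SNHG10 probes, whereas each LacZ library lists it at 0. The groups did not overlap, as in 10.5% of all 16618 transcript rows tested, and VIM-209 did not pass (limma adjusted p = 0.613 over those rows, of which 15, or 0.0903%, were called). VIM-209 entered the test only through its SNHG10 libraries, so the filter fixed its direction and its non-overlap, which support nothing. Most of its signal was in SNHG10 replicate 2, the library with the lowest VIM-201. The share of VIM in VIM-201 was 99.5%, 78.2% and 98.9% with SNHG10 probes, against 99.99%, 100% and 99.7% with LacZ probes (two-sided exact permutation p = 0.1, the smallest possible, and 0.3 adjusted over 3 shares). That difference of -7.68 points was -0.697 points without SNHG10 replicate 2. With VIM-209 left out of the sum, a choice made after its values were seen, VIM read 1198, 667 and 824 FPKM against 1443, 1522 and 953 FPKM and was not called (log2 difference -0.56, limma adjusted p = 0.885).

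**Figure D3:**
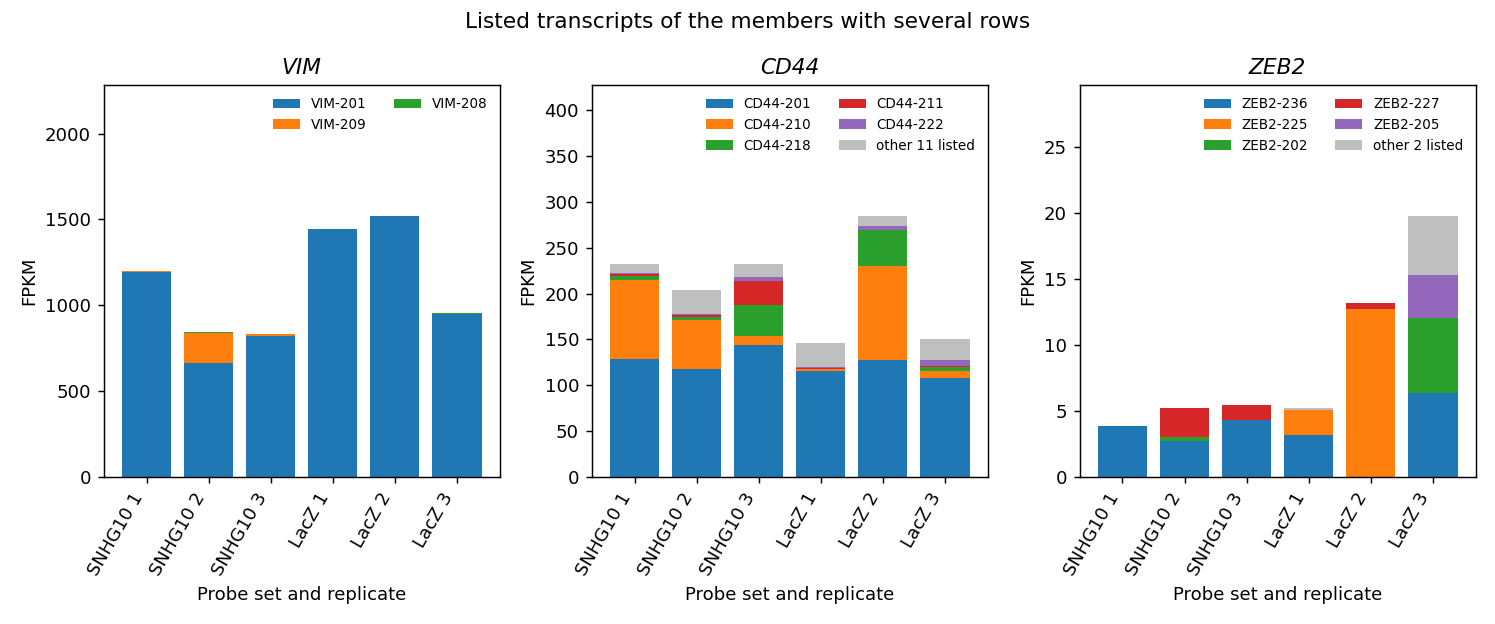
FPKM of the listed transcripts of VIM, CD44 and ZEB2, stacked to the gene sum, in each of the 3 SNHG10 and 3 LacZ libraries; the 5 transcripts with the highest mean have a colour and the others are grey. VIM-209 reaches 179 FPKM in SNHG10 replicate 2, and CD44-201 is steady while CD44-210 is high in 3 libraries. In LacZ replicate 2, most ZEB2 signal is assigned to ZEB2-225, and ZEB2-236 is listed at 0.

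CD44 was the only tested member with a positive difference. CD44 (chromosome 11, 35160417 to 35253949, plus strand, hg19) had levels of 232, 204 and 232 FPKM with SNHG10 probes, against 146, 285 and 150 FPKM with LacZ probes. LacZ replicate 2 lay above all SNHG10 libraries and the other two LacZ libraries below them. The log2 difference was 0.27 ± 0.25, 95% interval -0.30 to 0.84, with a limma adjusted p of 0.928, and it was 0.58 without LacZ replicate 2. CD44 transcripts are spliced with or without a block of variable exons, and 16 of them were listed.

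The spread of CD44 came from its lesser transcripts. CD44-201 read 128, 118 and 144 FPKM with SNHG10 probes, against 115, 128 and 108 FPKM with LacZ probes, a range of 1.33-fold over the 6 libraries (limma adjusted p = 0.951). CD44-210 read 86.9, 52.6 and 9.18 FPKM with SNHG10 probes, against 2.78, 103 and 7.17 FPKM with LacZ probes, a 37.0-fold range. Its high values fell in both probe sets, in SNHG10 replicates 1 and 2 and in LacZ replicate 2 (limma adjusted p = 0.951). Without CD44-210, also a choice made after seeing the values, the gene read 145, 151 and 223 FPKM with SNHG10 probes, against 143, 182 and 143 FPKM with LacZ probes. The log2 difference was then 0.13 (limma adjusted p = 0.943). SNHG10 replicate 3, the highest of these, held 34.5 FPKM of CD44-218 and 25.6 FPKM of CD44-211. CD44-218 also read 39.0 FPKM in LacZ replicate 2, and was at most 4.36 FPKM in the other 4 libraries.

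One CD44 transcript had libraries that did not overlap. CD44-204 read 3.92, 3.30 and 8.24 FPKM with SNHG10 probes, against 2.03, 0 and 1.73 FPKM with LacZ probes, and did not pass (limma adjusted p = 0.859). It made up 1.69%, 1.62% and 3.55% of the gene with SNHG10 probes, against 1.39%, 0% and 1.15% with LacZ probes. Of the 16 member transcripts that entered the test, 0 passed. An unadjusted p under 0.05 was found for 2, VIM-209 and CD44-204, both higher, against 5.66% of all rows (2.59% higher). Libraries did not overlap for 3, these 2 with SNHG10 above (4.48% of all rows) and SNAI2-201 with SNHG10 below (6.06%). VIM-209 passed the filter only through its SNHG10 libraries, so its direction and non-overlap were fixed in advance. Its place in these counts supports nothing. Of the 16, 7 differences were below 0, against 53.9% of all rows. The share of CD44 in CD44-201 was 55.3%, 58.1% and 62.1% with SNHG10 probes, against 78.7%, 44.8% and 72.3% with LacZ probes (two-sided exact permutation p = 0.6). The difference of -6.80 points was -17.1 points without LacZ replicate 2 and -0.0822 points without LacZ replicate 1.

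CDH2 stayed near the filter. CDH2 (chromosome 18, 25530930 to 25757410, minus strand, hg19), listed as 1 transcript, had 2.74, 1.53 and 0.804 FPKM with SNHG10 probes, against 2.29, 2.31 and 1.38 FPKM with LacZ probes. The SNHG10 values enclosed the LacZ values. The log2 difference was -0.20 ± 0.40, 95% interval -1.13 to 0.72, with a limma adjusted p of 0.960, and it was 0.0552 without SNHG10 replicate 3.

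The profiles over the 6 libraries were compared with those of 2285 or 2286 other tested genes whose mean reached 20 FPKM, as a description only. Likeness was the root-mean-square distance between log2(FPKM + 1) values centred on each gene's mean. The nearest genes were C14orf2 for VIM (0.117), CST3 for CD44 (0.101), SREBF2 for TGFB1 (0.0533), COX7A2 for SNAI2 (0.0557), POMP for CDH2 (0.0828) and NACC1 for ZEB2 (0.326). With so many candidates and 6 libraries, a near profile is easily found. ZEB2, the member with the largest scatter, had the most distant one. Such a distance tends to grow with a member's own scatter, so the distances do not rank the members. The SD over the 6 libraries was 0.753 for ZEB2 and between 0.201 (TGFB1) and 0.357 (CDH2) for the other tested members.

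Other genes of the transition gave no call either. Of 11 further transcription factors of the transition, 6 had rows and 5 were tested, of which 0 passed, with 3 differences above 0 and 2 below (median 0.05). TCF3, an E-box binding factor, averaged 27.1 ± 4.47 FPKM with SNHG10 probes and 26.1 ± 3.35 FPKM with LacZ probes (SD, n = 3 each). TEAD2, a TEA-domain factor, read 6.48, 8.52 and 12.2 FPKM with SNHG10 probes, against 8.48, 15.8 and 10.9 FPKM with LacZ probes. TWIST2, a basic helix-loop-helix factor, read 1.86, 4.64 and 0 FPKM with SNHG10 probes, against 0, 1.24 and 0.899 FPKM with LacZ probes. TCF3 and TEAD2 were thus above ZEB2 or near it in level, and TWIST2 was nearer to CDH2. SNAI1, TCF4, PRRX1, GSC and KLF8 had no row and were not analysed here.

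Mesenchymal markers outside the members were abundant in part. Of 20, 14 had rows and 13 were tested, of which 0 passed, with 8 differences above 0 and 5 below (median 0.11). SPARC, a matrix glycoprotein, averaged 159 ± 12.6 FPKM with SNHG10 probes and 151 ± 11.8 FPKM with LacZ probes (SD, n = 3 each). TAGLN, an actin-binding protein of smooth muscle, read 9.55, 1.93 and 21.0 FPKM with SNHG10 probes, against 1.72, 1.38 and 1.99 FPKM with LacZ probes (limma adjusted p = 0.885). ACTA2, smooth muscle actin, read 22.1, 7.69 and 23.0 FPKM with SNHG10 probes, against 40.8, 27.4 and 22.0 FPKM with LacZ probes (limma adjusted p = 0.891). The log2 difference of TAGLN was 1.71, and it was 1.05 without SNHG10 replicate 3 and 2.50 without SNHG10 replicate 2. That of ACTA2 was -0.83, and it was -0.36 without SNHG10 replicate 2.

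Epithelial markers were listed beside the mesenchymal ones, with abundant keratins. Of 20, 10 had rows and 9 were tested, of which 0 passed, with 2 differences above 0 and 7 below (median -0.09, and 5 below 0 with median-ratio scaling). KRT18, a keratin of simple epithelia, averaged 1014 ± 94.2 FPKM with SNHG10 probes and 1031 ± 43.6 FPKM with LacZ probes (SD, n = 3 each), close to VIM in level. KRT8, its partner, read 549, 544 and 465 FPKM with SNHG10 probes, against 601, 589 and 633 FPKM with LacZ probes, without overlap (log2 difference -0.23 ± 0.09, limma adjusted p = 0.885). KRT8 was the 1 of the 9 without overlap, against 11.4% of all genes tested (7.21% with SNHG10 libraries below). CLDN1, a tight junction protein, read 3.49, 1.27 and 3.04 FPKM with SNHG10 probes, against 0.849, 1.497 and 1.13 FPKM with LacZ probes. CDH1, which encodes E-cadherin, EPCAM, and the epithelial splicing regulators ESRP1 and ESRP2 were among the 10 with no row and were not analysed here.

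**Figure D4:**
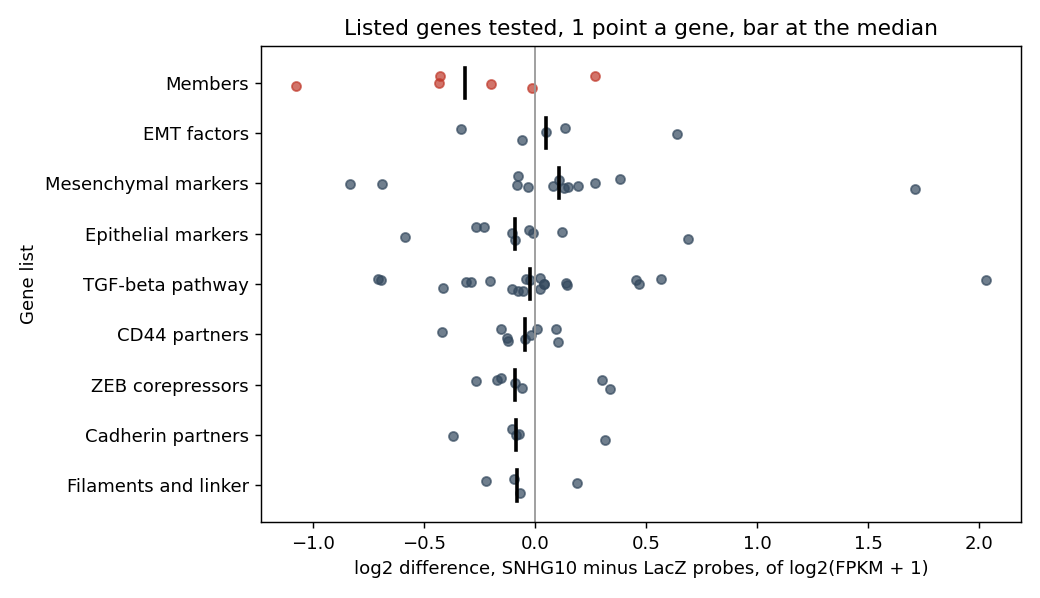
The log2 difference, SNHG10 minus LacZ probes, on the log2(FPKM + 1) scale, of each tested gene of 8 lists and of the 6 tested members; a point is a gene and a bar the median of its list. Medians lie between -0.31 for the members and 0.11 for mesenchymal markers, and no point passed the limma threshold.

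In the TGF-beta pathway, 23 of 27 genes had rows and 21 were tested, of which 0 passed, with 10 differences above 0 and 11 below (median -0.02, and 9 below 0 with median-ratio scaling). THBS1, thrombospondin 1, which can activate latent TGF-beta, averaged 627 ± 136 FPKM with SNHG10 probes and 613 ± 105 FPKM with LacZ probes (SD, n = 3 each). SMURF2, a ubiquitin ligase of the pathway, read 38.5, 86.3 and 36.5 FPKM with SNHG10 probes, against 86.5, 44.2 and 34.6 FPKM with LacZ probes, so that 1 library of each set stood high. BAMBI, a pseudoreceptor that dampens the pathway, read 4.58, 1.83 and 3.32 FPKM with SNHG10 probes, whereas each LacZ library lists it at 0 (limma adjusted p = 0.587). BAMBI entered the test only through its SNHG10 libraries, so the filter fixed its direction and its non-overlap, which support nothing. ITGAV, an integrin subunit that binds latent TGF-beta, read 10.03, 10.6 and 9.75 FPKM with SNHG10 probes, against 8.80, 5.25 and 5.90 FPKM with LacZ probes (limma adjusted p = 0.885).

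Partners of CD44, the ZEB proteins, cadherins and vimentin were tested as 4 further lists, and 0 of their tested genes passed. Of 9 tested CD44 partners, 3 were above 0 and 6 below, and 4 were below 0 with median-ratio scaling. MSN, moesin, which links CD44 to actin, read 128, 136 and 135 FPKM with SNHG10 probes, against 141, 155 and 148 FPKM with LacZ probes, without overlap (log2 difference -0.15 ± 0.10, limma adjusted p = 0.928). MSN was the 1 of these 9 without overlap, against 11.4% of all genes tested (7.21% with SNHG10 libraries below). SPP1, osteopontin, a CD44 ligand, read 31.2, 17.8 and 26.1 FPKM with SNHG10 probes, against 27.7, 29.7 and 43.8 FPKM with LacZ probes, and EZR, ezrin, lay between 57.8 and 79.8 FPKM in all 6 libraries. Of 7 ZEB corepressors, 2 were above 0 and 5 below. CTBP1 read 39.3, 30.1 and 34.3 FPKM with SNHG10 probes, against 29.0, 61.4 and 40.1 FPKM with LacZ probes, and its paralog CTBP2 read 21.3, 25.3 and 23.8 FPKM with SNHG10 probes, against 19.3, 24.7 and 13.9 FPKM with LacZ probes. KDM1A, a histone demethylase, lay between 24.3 and 35.5 FPKM.

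Of 5 cadherin partners, 1 was above 0 and 4 below. CTNNB1, beta-catenin, which binds the tail of N-cadherin, averaged 77.2 ± 4.35 FPKM with SNHG10 probes and 82.0 ± 2.85 FPKM with LacZ probes (SD, n = 3 each), which is far above CDH2. CTNNA1, alpha-catenin, read 91.2, 50.9 and 80.9 FPKM with SNHG10 probes, against 34.6, 78.1 and 71.3 FPKM with LacZ probes, and JUP, plakoglobin, read 6.69, 10.6 and 18.2 FPKM with SNHG10 probes, against 15.7, 14.2 and 13.5 FPKM with LacZ probes. Of 4 other filament and linker genes, 1 was above 0 and 3 below. PLEC, plectin, which crosslinks vimentin, read 94.98, 95.9 and 82.6 FPKM with SNHG10 probes, against 130, 91.0 and 101 FPKM with LacZ probes. The lamins LMNA and LMNB2 lay between 153 and 252 FPKM and between 40.5 and 56.9 FPKM.

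The liver label was checked against markers of hepatocytes and of other cells. Of 10 hepatocyte markers, 2 had rows, SERPINA1 and CPS1, with a summed level of 1.04 to 1.72 FPKM with SNHG10 probes and 1.25 to 2.12 FPKM with LacZ probes; ALB, AFP and the other 6 had no row and were not analysed here. Of 10 endothelial markers, 3 had rows, with a sum of 42.4 to 51.2 FPKM with SNHG10 probes and 46.4 to 61.8 FPKM with LacZ probes. EGFL7, a secreted endothelial protein, read 8.30, 7.45 and 8.18 FPKM with SNHG10 probes, against 26.0, 18.8 and 14.0 FPKM with LacZ probes (limma adjusted p = 0.778). ENG, a TGF-beta coreceptor, lay between 30.7 and 41.8 FPKM, and ROBO4 between 0.805 and 2.01 FPKM. Of 8 leukocyte markers, 2 had rows, CD68 and CD14, with a sum of 36.8 to 56.1 FPKM with SNHG10 probes and 43.1 to 56.5 FPKM with LacZ probes. CD68 made up most of it, CD14 was at most 2.69 FPKM, and the part of either in the levels of CD44 or VIM was not tested.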

How the data were processed

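Each library had 1 table deposited by the authors, with FPKM per transcript. The submitters' processing notes name Bowtie2 2.1.0 and hg19, and the sources used here do not name the program behind the FPKM. Reads shared by isoforms must be divided between them, so transcript values are less certain than gene sums. FPKM totals were 268794 to 277118 a library. Values down to 5e-06 FPKM occur, so the depth is unknown and no counting interval was computed. FPKM were summed per gene symbol. Genes (10304) and transcript rows (16618) reaching 1 FPKM in 3 or more libraries were tested on log2(FPKM + 1), which understates changes of low genes, with limma 3.58.1 in R 4.3.3 (eBayes with trend, 6 libraries) and Benjamini-Hochberg adjustment. Shares were compared by two-sided exact permutation over 20 assignments of libraries. The Benjamini-Hochberg adjustment over the isoform shares used scipy 1.17.1. Members and lists were chosen with earlier results of these data known. The text names all members, the 2 most abundant tested genes and the 2 with the smallest p of each list, and the nearest profile of each tested member. One gene that this rule picks is not reported here. Alternatives changed the scaling, pseudocount, filter and eBayes setting, added the replicate block, or left out 1 library.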

Additional observations from a re-analysis of the deposited data

How the results depend on the processing

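No member gene or transcript passed the threshold under any alternative run, and the smallest limma adjusted p of a member gene was 0.640, without LacZ replicate 2. VIM, ZEB2, SNAI2 and CD44 kept their sign throughout. With 1 library left out, the log2 difference ranged from -0.647 to -0.310 for VIM, -1.56 to -0.698 for ZEB2, -0.564 to -0.287 for SNAI2, 0.104 to 0.583 for CD44, -0.470 to 0.0552 for CDH2 and -0.125 to 0.120 for TGFB1. TGFB1 turned to 0.0424 by median-ratio scaling and 0.0344 by quantile normalization, KRT18 to 0.0340 and 0.0399, and SMURF2 to 0.0182 and 0.0185. Signs that also turned with a library left out gave ranges of -0.0465 to 0.187 for TCF3, -0.101 to 0.0226 for KRT18, -0.126 to 0.218 for THBS1, -0.435 to 0.334 for SMURF2, -0.197 to 0.00503 for EZR, -0.518 to 0.00971 for CTBP1, -0.0478 to 0.562 for CTNNA1, -0.190 to 0.140 for LMNA, -0.188 to 0.0445 for LMNB2, -0.0720 to 0.168 for ENG and -0.101 to 0.203 for CD68. Among transcripts the ranges were -0.160 to 0.865 for CD44-208, -0.551 to 2.11 for CD44-218 and -0.275 to 1.17 for ZEB2-236. For the share of TGFB1 in the ligands the range was -2.12 to 2.17 points. For ZEB2 in ZEB1 plus ZEB2 it was -3.42 to 2.47 points, values that the zeros of the ZEB1 row fix and that support nothing. Genes called numbered 0 to 1 higher and 0 to 1 lower with a library left out, the 1 higher without LacZ replicate 2 and the 1 lower without SNHG10 replicate 1. Transcript rows called, 8 higher and 7 lower, became 3 and 2 at pseudocounts 0.1 and 5, 3 and 3 without a filter or at 5 FPKM, 26 and 27 without trend, and 0 and 0 with any library left out. No label says whether the replicate numbers pair the libraries, and same-number deviations correlated at 0.0151, 0.0121 and 0.0161. With the replicate block, 0 transcript rows and 0 genes were called. The causes were not tested. For ZEB2 in ZEB1 plus ZEB2, the share over transcripts with a mean of at least 1 FPKM was not computed. With 3 libraries a group and unknown depth, differences within the intervals given are not excluded. The intervals are unadjusted and are not limits of detection, and larger differences could also miss the adjusted threshold.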
